A study of Rattus with 12 samples.

Results

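Unnamed transcribed loci on chromosome 1 are the rows of the deposited gene table that carry no gene name, lie on rat chromosome 1 and have a mean level of at least 1 FPKM over both strains. FPKM counts fragments per kilobase of transcript, scaled to the mapped fragments of the library, which puts loci of different length on a common scale. In a short locus the same FPKM rests on fewer fragments, so equal levels are not equally well measured. The rule takes 681 of 42915 gene rows, and 1314 unnamed rows of any level lie on this chromosome. All 681 carry a running assembly number (MSTRG) in place of a gene identifier. The mean level chose them, so their levels are given as a description, without a test. Both strains reached 1 FPKM for 537 loci, while SS was under 1 FPKM for 79 and SS.BN1 for 65, which entered through the other strain.

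RNA came from medullary thick ascending limbs, the salt-reabsorbing nephron segment of the outer medulla, picked by hand from male rats that came from the colony at 7 weeks, ate a 0.4% NaCl diet and had no other treatment. Of 12 animals, 6 were Dahl salt-sensitive rats (SS/JrHsdMcwi, here SS) and 6 were consomic rats (SS-Chr 1BN/Mcwi, here SS.BN1), which carry a Brown Norway chromosome 1 on the SS background. One total-RNA library was made per animal, with 47.7 to 57.7 M reads in SS and 42.3 to 59.8 M in SS.BN1. Only 1 FPKM value is deposited per strain, so no level below has an error between animals, and p and q are those of the authors' deposited table (q is the adjusted p). Where a pair of FPKM values is given, SS comes first and SS.BN1 second. Hand-picked tubules can hold other cells, and in bulk RNA fewer cells of a type and less RNA per cell cannot be told apart. Of 10 thick ascending limb markers all were tested and none was called, with Slc12a1, the segment's salt cotransporter, at 2571 and 2406 FPKM. All 12 proximal tubule markers had the higher value in SS, 8 of the 10 tested were called, and their summed level was 637 and 283 FPKM. Of 6 collecting duct markers 1 was called lower in SS (sums of 234 and 314 FPKM). Of 5 endothelial markers found 1, Tek, was called lower in SS, and 2, Flt1 and Cdh5, had the higher value in SS (sums of 52.4 and 69.7 FPKM). Of 6 leukocyte markers 4 were tested and 1, Cd14, was called higher in SS, at 7.46 and 2.63 FPKM. The 6 summed to 25.2 and 26.1 FPKM, and 3 of them had the higher value in SS. None of the smooth muscle and fibroblast markers was called (sums of 14.2 and 13.8 FPKM).

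Transcript assembly joins overlapping reads into models whether or not a gene has been annotated there. Models without a name can be long non-coding RNAs, expressed pseudogenes, genes missing from the annotation used, unannotated ends of known genes, or fragments of introns and precursor RNA, which total-RNA libraries hold as well. Chromosome 1 is the chromosome that differs by descent between these strains, and the Brown Norway strain is also the source of the rat reference genome.

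Most unnamed loci were short, low in level and close to a named gene. Of the 681, 388 lay between 1 and 2 FPKM, 79 reached 5 FPKM and 29 reached 10. Their median level was 1.73 FPKM, beside 1.65 FPKM for the 3964 unnamed rows on other chromosomes chosen by the same level and 12.3 FPKM for the 1528 named rows of chromosome 1. Together they held 4.13% of the summed FPKM of chromosome 1 in SS and 4.05% in SS.BN1. A single row, MSTRG.2079, made up 16.9% of the loci's own sum in SS and 13.2% in SS.BN1. The authors tested 340 of the 681 loci, or 49.9%, against 44.4% of the unnamed rows elsewhere and 94.1% of the named rows of the chromosome.

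The deposited position of a row is that of a group of overlapping rows, since 42915 rows have 35855 distinct positions. Of the 681 loci, 193 had the same position as a named row, and their length is therefore not their own. They lay in 143 such positions, of which 31 held 2 or more of the loci and none more than 6. Over all 681, the median length of the deposited position was 1364 bp and the median gap to a named row 704 bp. The other 488 loci shared their position with no named row and are called loci with a position of their own, although 12 of them shared it with another unnamed row, so that their length too is that of a group. Positions below are as deposited, with 1 added to the start, and the build is not settled: the submitters' processing notes name rn5, while 6832 rows bear names of contigs (AABR07) of a later rat assembly.

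Among the 488 loci with a position of their own, the median length was 523 bp, against 472 bp for 3055 such rows elsewhere. The shortest had 200 bp and the longest 89813 bp. Loci of up to 250 bp numbered 99, those of 251 to 500 bp 141, and those over 5000 bp 58. The authors tested 16 of the 99 shortest and 44 of the 58 longest. The 4 shortest of all loci were MSTRG.2831 and MSTRG.2834 at 200 bp and MSTRG.1702 and MSTRG.1771 at 201 bp, none of them tested. The 4 with the longest deposited position were MSTRG.456 and MSTRG.460 (both in an interval of 818779 bp), MSTRG.2045 (555925 bp, the position of Sox6, a developmental transcription factor) and MSTRG.2359 (514227 bp, the position of Dock1, an activator of the GTPase Rac). These long intervals belong to the named rows as much as to the unnamed ones.

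**Figure D1:**
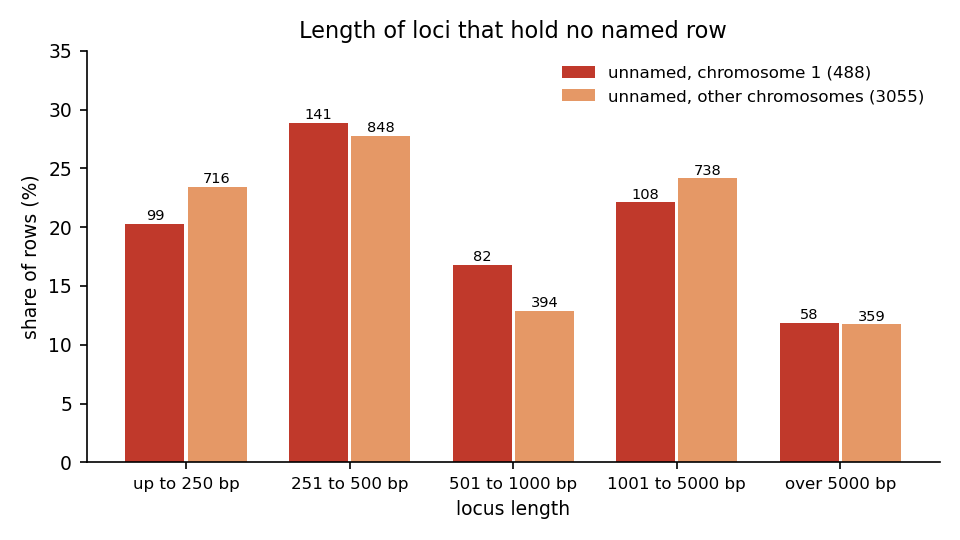
Share of unnamed loci in each class of locus length (vertical axis, percent of rows) for loci that share their position with no named row, on chromosome 1 (488) and on other chromosomes (3055), with the number of rows above each bar. In both, 251 to 500 bp is the fullest class, with 141 and 848 rows.

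Named genes were near most of the loci. Besides the 193 at a named row's own position, 175 lay within 1 kb of one and a further 151 within 5 kb. Elsewhere in the genome 909, 1153 and 751 of 3946 unnamed rows on sequences with a named row fell in these classes. For loci with a position of their own, the median gap was 2168 bp on chromosome 1 and 2201 bp elsewhere. More than 100 kb from any named row were 21 loci. The farthest were MSTRG.2006 and MSTRG.2007, 301616 and 300269 bp from Ythdc2, an RNA helicase that binds methylated RNA, followed by MSTRG.1411 (242966 bp from a group of 15 overlapping rows) and MSTRG.1 (222852 bp from a contig-named row). MSTRG.2007 had 23.8 and 26.0 FPKM, and MSTRG.2006, the next locus to it, had 6.42 and 8.47 FPKM. Between Rras2 and Copb1, their flanking genes with a RefSeq symbol, RefSeq's GRCr8 annotation holds 3 genes. These are the pseudogenes Rpl27a-ps4 and Rps14-ps6 and the protein-coding Rps18l4, and neither locus was matched to them.

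**Figure D2:**
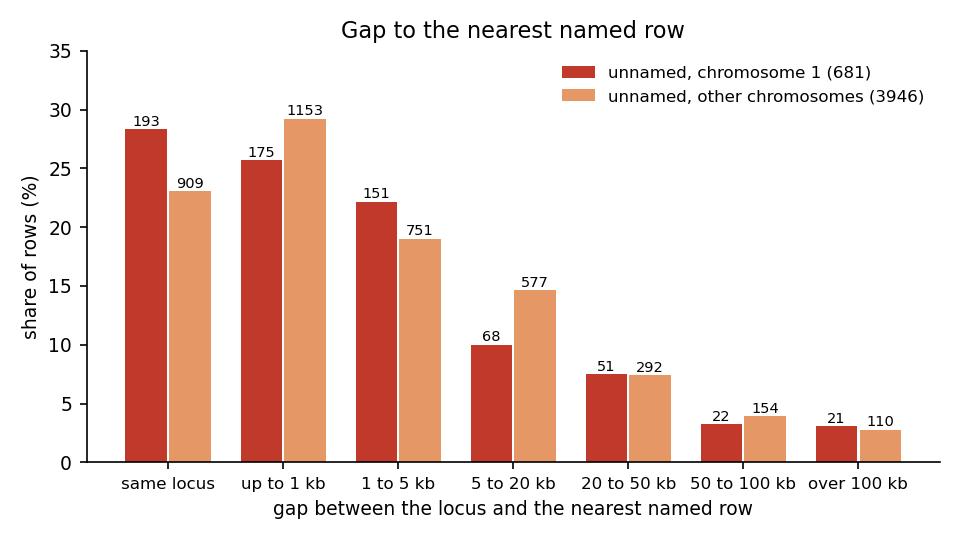
Share of unnamed loci in each class of gap to the nearest named row (vertical axis, percent of rows), for 681 loci on chromosome 1 and 3946 on other chromosomes, with the number of rows above each bar. The same position as a named row holds 193 loci of chromosome 1, and gaps over 100 kb hold 21.

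The loci were spread along the whole chromosome but not evenly. In windows of 20 Mb their number ranged from 19 (100 to 120 Mb) to 75 (80 to 100 Mb), leaving aside the short last window, which held 14. Set against named rows of at least 1 FPKM in the same window, there were 21.1 loci per 100 named rows at 100 to 120 Mb and 84.5 at 40 to 60 Mb. The window with the most loci, 80 to 100 Mb, held 197 named rows and so only 38.1 loci per 100.

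Of the 3 most abundant unnamed loci, 2 shared the position of a named gene and 1 did not. MSTRG.2079 had 494 and 354 FPKM and shares its position (189186026 to 189272172) with Umod, which encodes uromodulin, the most abundant protein of normal urine. Umod itself had 10174 and 8492 FPKM, and how much of the locus's level came from reads of Umod was not tested. MSTRG.1716, at the position of the mitochondrial malic enzyme Me3 (153861224 to 154056654), had 144 and 49.9 FPKM, with p = 0.115 and q = 1.00 in the authors' deposited table. Its log2 ratio of SS over SS.BN1 was 1.53, whereas that of Me3 was -0.09, at 54.6 and 58.0 FPKM.

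MSTRG.2671 (221179128 to 221204336, 25209 bp) stood at 272 and 169 FPKM, the second highest level, and shares its position with no named row. The authors' deposited table gave it p = 0.0695 and q = 0.804, so its log2 ratio of 0.69 did not pass the test. It had 2 isoforms, of which MSTRG.2671.2 held 262 of the 272 FPKM in SS and 162 of the 169 in SS.BN1. Its nearest named row is Frmd8, 8975 bp away, at 14.2 and 13.4 FPKM. On the other side lies a clone-named row 20335 bp away, itself abundant at 541 and 556 FPKM.

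The other 5 of the 8 most abundant loci include MSTRG.3327, described next with the called loci. MSTRG.719 (588 bp, 29 bp from a row that joins Ccdc106 and the splicing factor gene U2af2) had 41.0 and 47.9 FPKM. MSTRG.1673 (148450201 to 148456229), 6842 bp from the chaperone gene Vbp1, had 36.6 and 36.9 FPKM. MSTRG.61 (2726 bp), 357 bp from Samd5 (55.5 and 55.8 FPKM), had 26.0 and 29.8 FPKM. The folds of these 3 were 1.17, 1.01 and 1.14, and each had q = 1.00 in the authors' deposited table. MSTRG.2839 (227110932 to 227113963, 3032 bp), among genes of the membrane-spanning Ms4a family, showed 37.9 and 56.8 FPKM, with p = 0.0184 and q = 0.320 in the authors' deposited table. The Ms4a rows on both sides of it were at or near 0, with Ms4a8 at 0.0310 FPKM in SS and listed at 0 in SS.BN1, and Ms4a18 the other way round at 0.0276 FPKM.

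Between the strains, 6 unnamed loci of chromosome 1 were called by the authors (q under 0.05), of 340 tested. That is 1.76%, beside 3.42% of all 13253 tested rows and 1.48% of the 1761 tested unnamed rows elsewhere. Of the 6, 5 were higher in SS (3.32% of all tested rows were called in that direction) and 1 was higher in SS.BN1 (0.0981% of all tested rows). Elsewhere all 26 called unnamed rows were higher in SS. All 6 have a position of their own, of 240 such loci tested (2.50%), beside 23 of 1298 such rows elsewhere (1.77%). None of the 100 tested loci at a named row's position was called (1 had an unadjusted p under 0.05). Elsewhere 3 of 463 tested unnamed rows at a named row's position were called, so calls were few there too. Proximal tubule markers were higher in SS as given above, and their part in the calls toward SS was not tested. For the call toward SS.BN1, the part of the collecting duct and endothelial markers that were called lower in SS was not tested either. With q under 0.01 there was 1 call, MSTRG.3327. Among loci of at least 2 FPKM there were 3 calls, 2 of 160 tested at 2 to 5 FPKM and 1 of 78 at 5 FPKM or more. In these classes unnamed rows elsewhere had 7 of 820 and 9 of 470. Named rows of the chromosome had 10 of 232 and 48 of 1125. MSTRG.2192 and MSTRG.2088 reached the mean level through SS alone, and with at least 1 FPKM in the lower strain there were 4 calls. No share of all tested rows is given for this count or for that at q under 0.01.

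MSTRG.3327 (275976574 to 275981562, 4989 bp, 1 isoform) had 18.8 and 37.8 FPKM. Its log2 ratio of SS over SS.BN1 was -1.01, with p = 5e-05 and q = 0.00266 in the authors' deposited table. It begins 1 bp from Tectb, a gene for an inner ear matrix protein, which had 0.558 and 0.975 FPKM and was not tested. The unnamed locus was thus far more abundant than the named row it adjoins. At higher coordinates are a contig-named row 17133 bp away (7.33 and 6.83 FPKM) and, 205325 bp away, Gucy2g, a receptor guanylate cyclase. Gucy2g had 24.1 and 47.3 FPKM, and the authors' deposited table called it lower in SS (q = 0.00266). In RefSeq's GRCr8 annotation no gene lies between Tectb and Gucy2g. The 3 unnamed loci whose nearest named row is Gucy2g had log2 ratios of 0.02, -0.03 and -0.26, in order of distance from it, beside -0.97 for Gucy2g itself. MSTRG.3340, 13069 bp from it and not tested, had 2.30 and 2.27 FPKM, MSTRG.3334, 46788 bp from it, had 2.09 and 2.14, and MSTRG.3333, 49205 bp from it, had 2.87 and 3.43.

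MSTRG.2192 (197962307 to 197964345, 2039 bp) had the largest called difference, at 2.28 and 0.212 FPKM. The fold was 10.8, with p = 0.00035 and q = 0.0140 in the authors' deposited table. It lies 61 bp from Eif3c, a subunit of a translation initiation factor, which did not share the difference at 63.4 and 64.5 FPKM. Between Atxn2l and Eif3c, the flanking genes with a RefSeq symbol, GRCr8 holds 2 genes, a long non-coding RNA gene (LOC134483838) and Mt1-ps1, a pseudogene of the metal-binding protein metallothionein 1. The Mt1 row itself, on chromosome 17, was called higher in SS at 1144 FPKM against 276 (q = 0.00266 in the authors' deposited table). Whether reads of similar sequence were shared between the 2 rows was not tested.

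MSTRG.812 (78266068 to 78267891, 1824 bp) had 5.66 and 2.12 FPKM, a fold of 2.67 with q = 0.0124 in the authors' deposited table. Its neighbours did not share the direction: Sae1, a SUMO-activating enzyme subunit 9623 bp away, had 25.5 and 26.1 FPKM, and the joined row of Ccdc9 and Inafm1 on the other side had 28.2 and 34.0. RefSeq's GRCr8 annotation places 3 genes between C5ar1 and Sae1, which are Inafm1, Ccdc9 and Bbc3. Bbc3 encodes PUMA, a p53-induced protein that promotes cell death, and no row of the table bears that name. The locus was matched to none of these genes.

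MSTRG.2088 (189473184 to 189475573, 2390 bp) had 3.04 and 0.622 FPKM, a fold of 4.90 with q = 0.0249 in the authors' deposited table. It lies among acyl-CoA synthetase genes, with Acsm4 16135 bp to one side (0.0540 and 0.0510 FPKM, not tested) and Acsm3 38819 bp to the other (4.69 and 3.05 FPKM, q = 1.00 in the authors' deposited table). MSTRG.2089 (437 bp), the next locus along, had 2.76 and 0.224 FPKM. Its log2 ratio of 3.62 was the highest of any tested locus here, yet it was not called (p = 0.0934 and q = 0.986 in the authors' deposited table). Like MSTRG.2088, it reached the mean level through SS alone. MSTRG.2087, on the near side of the pair and 103 bp from a contig-named row, had the opposite order, at 1.91 and 2.84 FPKM. The contig-named row nearest to all 3 loci had 18.4 and 17.6 FPKM. Between Acsm4 and Eri2, the flanking genes with a RefSeq symbol, GRCr8 places 2 genes, the protein-coding Thumpd1, a name that no row of the table bears, and a long non-coding RNA gene (LOC134483776). Neither MSTRG.2088 nor MSTRG.2089 was matched to them.

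MSTRG.2756 (223499147 to 223522978, 23832 bp) had 5.87 and 1.68 FPKM, a fold of 3.50 with q = 0.0318 in the authors' deposited table. It lies in a stretch of contig-named rows, the nearest 26200 bp away with 2.83 and 2.16 FPKM. Between Lgals12 and the transporter gene UST4r, the flanking genes with a RefSeq symbol, GRCr8 holds 6 genes. Plaat5 and Slc22a24, the latter of the organic anion and cation transporter family, are protein-coding, and the others are pseudogenes. No row bears the name Slc22a24, and the locus was matched to none of these genes. On the other side the nearest contig-named row was listed at 0 in both strains, and the next, 523637 bp away, had 3.66 and 0.925 FPKM (q = 0.0741 in the authors' deposited table).

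MSTRG.2919 (234798674 to 234803059, 4386 bp, 2 isoforms) had 2.50 and 1.11 FPKM, a fold of 2.25 with q = 0.0467 in the authors' deposited table. It lies 11 bp from Ostf1, a gene for an SH3-domain protein first described in osteoclasts, which was itself called higher in SS at 64.5 against 39.3 FPKM (q = 0.0454 in the authors' deposited table). This is the 1 called locus whose nearest named row was also called.

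**Figure D3:**
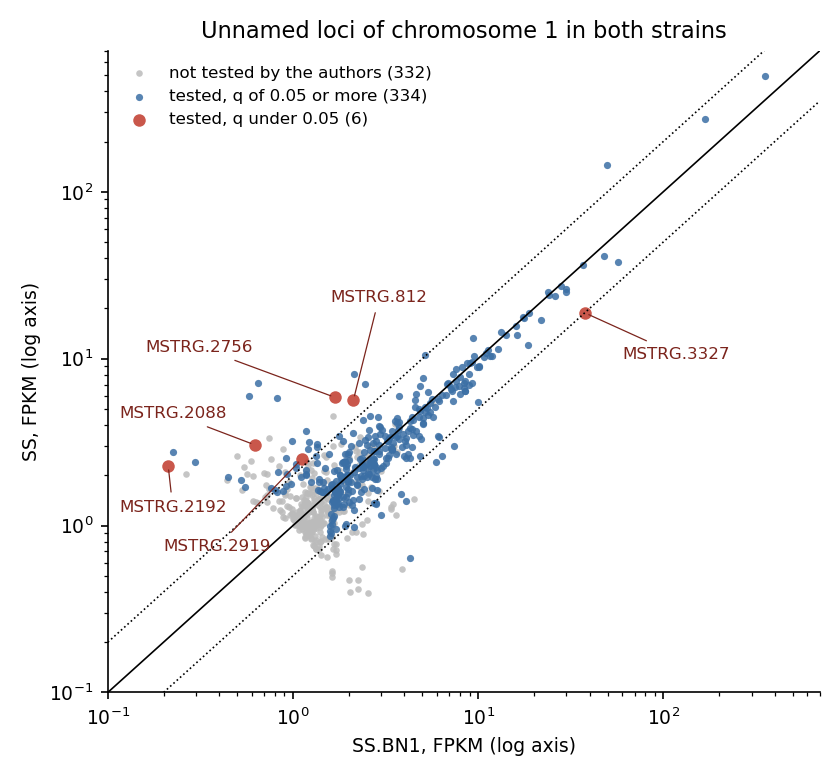
Level of each unnamed locus of chromosome 1 in SS.BN1 (horizontal log axis, FPKM) and in SS (vertical log axis, FPKM), for the 672 loci above 0 in both strains. The solid line marks equal levels and the dotted lines 2-fold differences, and 5 of the 6 called loci (red) lie above the line and MSTRG.3327 below it.

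The tested loci as a whole lay slightly toward SS.BN1. Their median log2 ratio was -0.08 (quartiles -0.32 and 0.24), with 142 higher in SS against 198 higher in SS.BN1, whereas the median of all tested rows was 0.0011. Unnamed rows elsewhere had a median of -0.06, with 740 against 1020 in the same order, and named rows of chromosome 1 a median of 0.01. An unadjusted p under 0.05 was given to 21 of 340 loci (6.18%), beside 7.55% of all tested rows.

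Large ratios in either direction were more frequent than calls. At least a 2-fold difference was found for 42 of 340 tested loci (12.4%), beside 5.14% of all tested rows, 7.95% of unnamed rows elsewhere and 5.08% of named rows on chromosome 1. Among the 42, SS had the higher value for 30 and SS.BN1 for 12. A locus under 1 FPKM in 1 strain had to be higher in the other to enter, and 18 of the 42 are of this kind. In all 4 classes of row the share fell with level. Between 1 and 2 FPKM, 16 of 102 loci passed 2-fold (15.7%), against 14.6% of unnamed rows elsewhere and 18.5% of named rows of the chromosome. Between 2 and 5 FPKM it was 21 of 160 (13.1%), against 6.83% and 9.05%. At 5 FPKM or more it was 5 of 78 (6.41%), against 3.19% and 3.29%. The difference between these shares was not tested, and the loci of each class share their libraries.

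**Figure D4:**
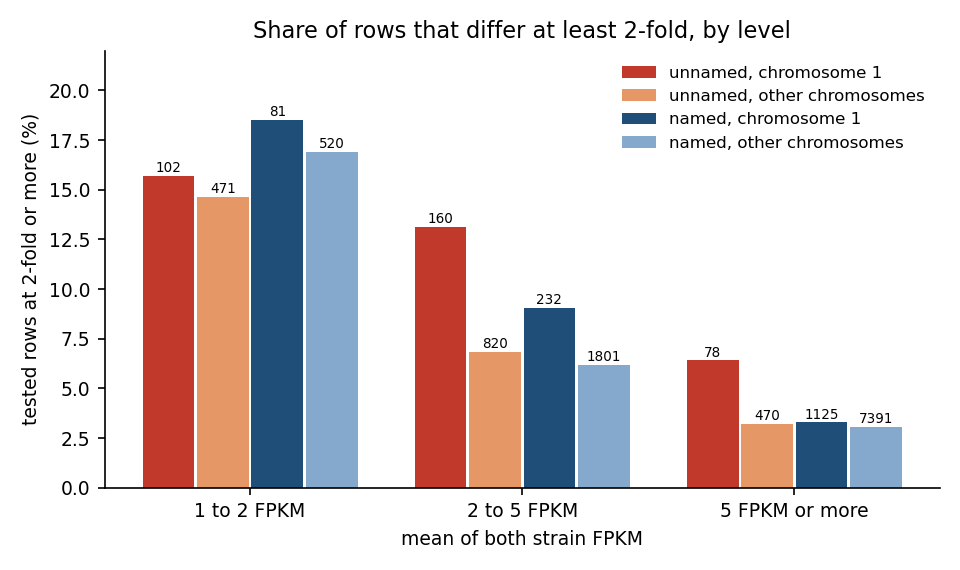
Share of tested rows whose 2 strain values differ at least 2-fold (vertical axis, percent), by mean level, for unnamed and named rows on and off chromosome 1, with the number of tested rows above each bar. Unnamed loci of chromosome 1 have 13.1% at 2 to 5 FPKM and 6.41% at 5 FPKM or more, where unnamed rows elsewhere have 6.83% and 3.19%.

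The largest ratios toward SS that were not called came from loci under 1 FPKM in SS.BN1. These reached the mean level through SS alone, so the rule itself required the higher value in SS. MSTRG.1273, at a position of 230172 bp that it shares with the vomeronasal receptor row Vom2r37, had 7.18 and 0.651 FPKM and came closest (q = 0.0708 in the authors' deposited table). Vom2r37 itself was near 0, with 0.0150 and 0.0225 FPKM. MSTRG.1445, a locus of 207 bp that lies 190696 bp from the imprinted gene Peg12, had 6.001 FPKM against 0.576 (q = 0.272 in the authors' deposited table). MSTRG.2996, at the position of the transcription factor gene Glis3, had 2.41 against 0.295 FPKM, while Glis3 had 28.8 against 24.5. MSTRG.1084, at the position of Spred3, an inhibitor of growth factor signalling, had 5.82 against 0.815 FPKM, and Spred3 had 3.19 against 1.49.

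Toward SS.BN1, the lowest ratio belonged to MSTRG.1516, a locus of 209 bp that lies 137718 bp from a contig-named row. It had 0.641 and 4.30 FPKM, a log2 ratio of -2.75 with p = 0.0459 and q = 0.621 in the authors' deposited table. It reached the mean level through SS.BN1 alone, so the rule required this direction. MSTRG.3398, at the position of the heat shock protein gene Hspa12a, had 1.41 and 4.10 FPKM. MSTRG.962, at the position of the receptor kinase gene Axl, had 1.55 and 3.85 FPKM. The other 3 of the 6 lowest were short loci, MSTRG.433 (208 bp, 20815 bp from the imprinted receptor gene Igf2r), MSTRG.869 (263 bp, 431 bp from the actin regulator gene Vasp) and MSTRG.1630 (207 bp, 5983 bp from Whamm). Their log2 ratios were -1.31, -1.37 and -1.30, and each had q = 1.00 in the authors' deposited table.

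Some loci were listed at 0 in 1 strain, 9 in all and none of them tested: 6 in SS and 3 in SS.BN1. Elsewhere 48 unnamed rows were so listed, 31 in SS and 17 in SS.BN1, and the shares of all loci of each kind were 1.32% and 1.21%. MSTRG.2045, at the position of Sox6, was listed at 0 in SS and had 5.09 FPKM in SS.BN1, while Sox6 had 11.1 and 10.8. MSTRG.460 was listed at 0 in SS.BN1 and had 3.33 FPKM in SS. MSTRG.2831 (200 bp, 5824 bp from the lymphocyte gene Cd6), MSTRG.2338 (217 bp, 17375 bp from Abraxas2), MSTRG.2097 (at the position of Rexo5) and MSTRG.278 (at the position of Ube2ql1) were listed at 0 in SS and had 3.13, 3.02, 2.92 and 2.31 FPKM in SS.BN1. A value of 0 here may be a failed estimate, and no fold is given.

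Strain ratios of unnamed loci and of the named rows beside them were related at short gaps. Over tested loci whose nearest named row had a mean of at least 1 FPKM, the log2 ratios of locus and row had Pearson's r = 0.49 and Spearman's rho = 0.46 at the same position (86 loci). At gaps of up to 5 kb the values were 0.53 and 0.46 (137 loci). At 5 to 20 kb they were -0.16 and 0.0098 (20 loci), and beyond 20 kb 0.12 and 0.30 (21 loci). Locus and row come from the same libraries, several loci can share 1 row, and loci are not independent replicates. Without the rows that the authors called, r at gaps of up to 5 kb was 0.29 and rho 0.35 (128 loci). At the same position they were then 0.51 and 0.46 (83 loci), and beyond 20 kb 0.077 and 0.29 (19 loci). No such values are given for unnamed rows on other chromosomes.

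**Figure D5:**
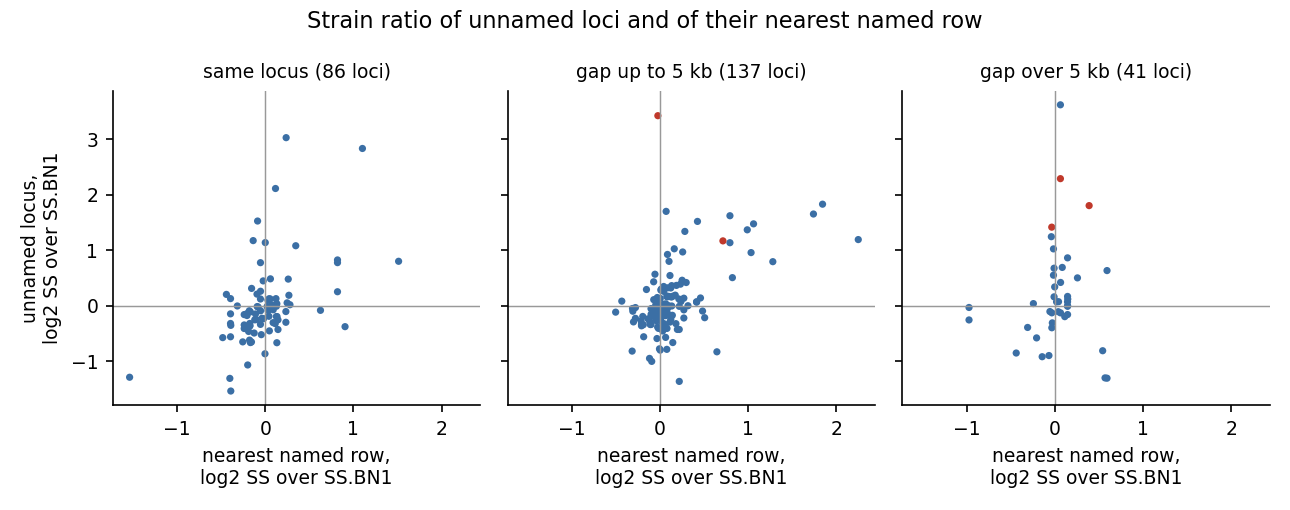
Log2 ratio of SS over SS.BN1 of each tested unnamed locus (vertical axis) against that of its nearest named row (horizontal axis), for rows with a mean of at least 1 FPKM, at the same position (86 loci), at gaps of up to 5 kb (137) and at larger gaps (41). Called loci are red, and in the middle panel the loci whose named row has a log2 ratio above 1 lie above 0.

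For 17 loci the nearest named row was itself called, and these were 14 different rows, 12 of them higher in SS. Among all named rows of chromosome 1 with at least 1 FPKM, 61 of 1438 tested were called (4.24%). Most of these, 57, were higher in SS, so the direction of the 12 is that of called rows in general. Of the 17, 14 were tested, with a median log2 ratio of 0.88, and 10 of them had the higher value in SS. Among the 326 other tested loci the median was -0.09, with 132 higher in SS. MSTRG.2462 (6228 bp, 3776 bp from Dusp8, a phosphatase of stress-activated kinases) had 1.88 and 0.527 FPKM, beside 9.45 and 2.63 for Dusp8. The log2 ratios were 1.83 and 1.84, and the locus missed the threshold at q = 0.0533 in the authors' deposited table. Both MSTRG.2462 and MSTRG.2932, named below, reached the mean level through SS alone. MSTRG.3186, 366 bp from Cnnm1, a gene of a metal transport family, had 3.68 and 1.17 FPKM beside 2.41 and 0.721. MSTRG.872, 267 bp from Fosb, part of the dimeric transcription factor AP-1, had 3.09 and 1.35 FPKM beside 296 and 62.2.

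Further loci of this kind lay 473 bp from Anxa1, an anti-inflammatory phospholipid-binding protein (MSTRG.2932, 2.54 and 0.911 FPKM), and 585 bp from the cytochrome gene Cyp2s1 (MSTRG.963, 3.17 and 1.23). Others lay 15 bp from Zfand5 (MSTRG.2935, 3.44 and 1.77 FPKM), 461 bp from the choline kinase gene Chka (MSTRG.2534, 2.03 and 1.17) and 1356 bp from the mitochondrial dismutase gene Sod2 (MSTRG.410, 13.3 and 9.37). None of these 5 was called. The direction was opposite to that of the gene for MSTRG.3247, at the position of the NF-kB subunit gene Nfkb2. This locus had 7.13 and 9.27 FPKM beside 18.7 and 9.98 for Nfkb2. It was also opposite for MSTRG.1218, at the position of Rhpn2, with 5.41 and 5.63 FPKM beside 18.5 and 11.2. MSTRG.3340, given above with Gucy2g, was opposite by a small margin. Neither MSTRG.1218 nor MSTRG.3340 was tested. MSTRG.1929, at the position of a joined row with Gvin1 that was higher in SS.BN1, had that row's direction at 2.61 and 6.38 FPKM. MSTRG.1930, at the same position and not tested, had it too at 0.521 and 1.63 FPKM. The libraries were made with a kit that keeps strand, but the table gives none, so whether a locus is on the strand of its neighbour cannot be told.

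Levels were mostly below those of the neighbouring gene. Within 1 kb of a named row, 34 of 175 loci had the higher mean FPKM of the pair (19.4%), and the median of locus over row was 0.163. Beyond 20 kb it was 54 of 94 (57.4%), where the median level of the named row was only 0.863 FPKM. At the same position it was 57 of 193 (29.5%).

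Most loci were single models: 628 of the 681 had 1 isoform, 53 had 2 or more and 6 had at least 5. The most, 23, belonged to MSTRG.1499, at the position of Nr2f2, a nuclear receptor, with 25.1 and 29.9 FPKM. Of 373 tested isoforms of these loci, 4 were called in the authors' deposited isoform table, beside 249 of all 23688 tested isoforms (1.05%). They belong to MSTRG.3327, MSTRG.2192, MSTRG.812 and MSTRG.1938, the last at the position of Trim66. The called loci MSTRG.2088 and MSTRG.2756 have 1 isoform each, with q = 0.0621 and 0.0784 in the authors' deposited isoform table. Neither of the 2 isoforms of MSTRG.2919 was tested. For MSTRG.1938 the isoform call stood without a call of the locus. Its isoform MSTRG.1938.1 had 3.19 and 0.938 FPKM (q = 0.0181 in the authors' deposited table), while the locus as a whole, at 4.51 and 2.59, was not called.

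At the edge of the level rule, the loci just inside were MSTRG.309 (1.36 and 0.645 FPKM), MSTRG.1069 (0.849 and 1.16) and MSTRG.1641 (2.01 and listed at 0). Those just outside were MSTRG.1790 (0.402 and 1.59), MSTRG.440 (1.28 and 0.714) and MSTRG.1283 (0.860 and 1.13). None of the 6 was tested by the authors.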

How the data were processed

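The deposited gene and isoform tables give 1 FPKM value per strain, and the p-values and q-values the authors deposited belong to a test of SS against SS.BN1. Nothing used here states how the authors combined 6 libraries into 1 value. Per the submitters' processing notes, the tools were StringTie, Cufflinks 2.2.1, TopHat2 2.1.1, FastQC and cutadapt, with no role or order, and the build was rn5. A further deposited table holds the read count of each library and the percent of reads mapped, 85.4 to 86.4% in SS and 84.4 to 85.9% in SS.BN1, per the file headers. Strain means of these measures differed by 0.769 M reads (p = 0.784) and 0.550 percentage points (p = 0.0584, adjusted over 2 measures 0.117) in two-sided exact permutation tests over 924 assignments. The reads behind each locus are unknown, so short and low loci carry no interval.

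Unnamed rows were taken at a mean of at least 1 FPKM, and calls are the authors' q under 0.05 over 13253 tested rows. Their q equals Benjamini-Hochberg adjustment of their p to within 5.27e-07. Log2 ratios are of SS over SS.BN1 without a pseudocount. Gaps run to the nearest row on the same chromosome that bears any name, and where several rows are equally near the most abundant is given. Starts count from 0 in the files, as 26 of 31 rows of the mitochondrial genome start on the end of another. RefSeq symbols of GRCr8 were used for the order of genes only.

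A fit per library was planned where values per library were found, and none was used. The members and lists were chosen with earlier results of these data known. Loci named follow a rule on calls, level, ratio, length, gap and nearness to the level threshold, and those beside a called gene, the isoform calls, MSTRG.2087, MSTRG.3333, MSTRG.3334, MSTRG.3340, MSTRG.1499 and the Mt1 row were named after their values were seen. A count, length or gap is said to have moved if it changed over 1.5 times, and a median log2 ratio if it changed over 0.1. The distance and adjustment code was tested on simulated data. Calculations used SciPy 1.17.1, pandas 2.3.3 and NumPy 2.4.6 under Python 3.11.15, with matplotlib 3.10.9 for plots.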

Additional observations from a re-analysis of the deposited data

How the results depend on the processing

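The values depended mainly on which rows entered, set against 681 loci, 6 calls, 1364 bp, a gap of 704 bp, 193 at a named row's position and 326 at other positions within 5 kb as reported. Of 55 alternative values 28 stayed within the bounds set and 27 moved. With a mean of at least 5 FPKM there were 79 loci, 1 of them called, with a median length of 3605 bp, a median gap of 119 bp, 23 at a named row's position and 40 within 5 kb. At 2 FPKM these were 293 loci and 3 calls, a gap of 379 bp, 84 and 137. With any level above 0 they were 1270 loci, 819 bp, 1664 bp, 296 and 554. Tested loci alone were 340, with 2360 bp, 354 bp, 100 and 164. With at least 1 FPKM in the lower strain there were 537 loci and 4 calls. With q under 0.01 there was 1 call. The median gap was 1191 bp without contig and Rfam names and 1426 bp to named rows of at least 1 FPKM, and 175 loci lay within 1 kb. Loci with a position of their own, an alternative chosen after seeing the data, had 523 bp and a median gap of 2168 bp. The median log2 ratio stayed between -0.09 and -0.05 in all of its alternatives run. No paired analysis was possible because each strain has 1 value per row. Single values per strain limit precision, and no depth per locus was used.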

Other observations

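The same FPKM to every deposited digit was listed in both strains for 29 of the 681 loci, none of them tested. Of these, 6 shared the position of a named row, and the other 23 had lengths of 201 to 302 bp. Examples are MSTRG.456 at 3.73 FPKM and MSTRG.1702 at 2.11 FPKM in each strain. Elsewhere 204 of 3964 unnamed rows and, over all chromosomes, 36 named rows with a mean of at least 1 FPKM had equal values.

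Strain ratios of neighbouring unnamed loci with positions of their own were correlated where the gap between them was short. Of 86 pairs at up to 5 kb, both loci were tested in 20. Over these 20, Pearson's r of their log2 ratios was 0.70 and Spearman's rho 0.60. Over 18 pairs at 5 to 50 kb they were 0.42 and 0.13, and over 91 pairs farther apart -0.03 and -0.03. The median difference in log2 ratio within pairs was 0.36, 0.60 and 0.47 in the same order, so near pairs still differed. Pairs share their libraries and a locus can be in 2 pairs, so these values describe the table.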
